A study of Mus musculus with 8 samples.

Results

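Receptors and the phosphodiesterase that set the rate of fat breakdown were followed in 3T3-L1 adipocytes, fat cells grown in culture from a clonal mouse fibroblast line, with and without tunicamycin. The genes were listed by name: Hcar1, Hcar2, Ffar2, Ffar4, Adrb1, Adrb3, Adora1, Ptger3 and Pde3b. Of these 9 genes, 6 had a probe set in the platform annotation, 8 probe sets in all of 45101 on the array. The annotation used here gave no probe set to Adrb1 and Adrb3, the beta-adrenergic receptors that start lipolysis, or to Adora1, the adenosine receptor that restrains it, so these 3 have no values. Tunicamycin stops cells from making the sugar chain that is attached to new glycoproteins, so that these misfold in the endoplasmic reticulum. Of 8 arrays, 4 were controls (1 at 4 h, 2 at 8 h, 1 at 12 h) and 4 came from tunicamycin-treated cells (1 at 4 h, 1 at 8 h, 2 at 12 h). All cells were labelled as adipocyte tissue culture, and neither the tunicamycin dose nor what the control cells received is given in the sources used here. The replicates are labelled biological.

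Fat cells store triglyceride and release it as fatty acids and glycerol when cyclic AMP (cAMP) rises. Receptors coupled to the stimulatory G protein, chiefly the beta-adrenergic ones, raise cAMP and activate protein kinase A, which switches on the lipases. Receptors coupled to the inhibitory G protein, for lactate (Hcar1), hydroxybutyrate and niacin (Hcar2), short-chain fatty acids (Ffar2), adenosine (Adora1) and prostaglandin E2 (Ptger3), lower it, and phosphodiesterase 3B (Pde3b), which insulin activates, degrades it. Ffar4, the receptor for long-chain fatty acids, is a fat cell marker that signals through other G proteins as well.

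Values are quantile-normalized intensities unless stated, and effects are log2 fold changes of tunicamycin over control from limma with its standard error (SE), computed on log2(value + 2.96), a scale that understates changes of dim genes. Genes were tested if their mean log2 value was at least 4.19, about 15.3 intensity units. On each array 19.2% to 20.9% of values lay at or below 0 as deposited. The ratio of 3' to 5' signal for beta-actin, a measure of RNA integrity, was 2.81 on the 4 h tunicamycin array, against 1.51 to 1.82 in controls. It was 1.67 to 1.71 on the 8 h and 12 h tunicamycin arrays. The ratio of the hybridisation controls BioC to BioB was 1.52 to 1.60 on the 12 h arrays and 3.50 to 3.94 on the others. The unfolded protein response was present in each treated culture: Ddit3, which encodes the stress factor CHOP, read 501 to 794 in controls and 4781 to 6986 with tunicamycin. The fat cell label was checked on the fat cell hormone Adipoq (means of 8896 in controls and 8526 with tunicamycin) and the lipid chaperone Fabp4. Fabp4 held the top normalized value, 10780, on all 4 control arrays, a value that quantile normalization makes the same on each array. Its effect over all times was -0.13 (limma adjusted p = 0.273), and -1.52 (limma adjusted p = 0.00328) with its probe sets averaged. Of 12 tested adipocyte markers, 7 were lower, as given below.

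Of the 6 measured genes, 4 passed the filter, and 3 of those changed over all times (limma, adjusted p under 0.05), where 20.7% of all tested genes did. Hcar1 and Pde3b fell and Ffar2 rose, each with the same direction and a call at both later times, and Ffar4 was not called. Hcar1 passed the filter through its control arrays. With no filter on low values Hcar1 was not called over all times or at either later time. Of the tested genes, 9.68% were called lower and 11.1% higher. Hcar2 and Ptger3 lay below the filter and were not tested there. In whole cultures, fewer cells expressing a gene and less RNA per cell cannot be told apart.

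**Figure D1:**
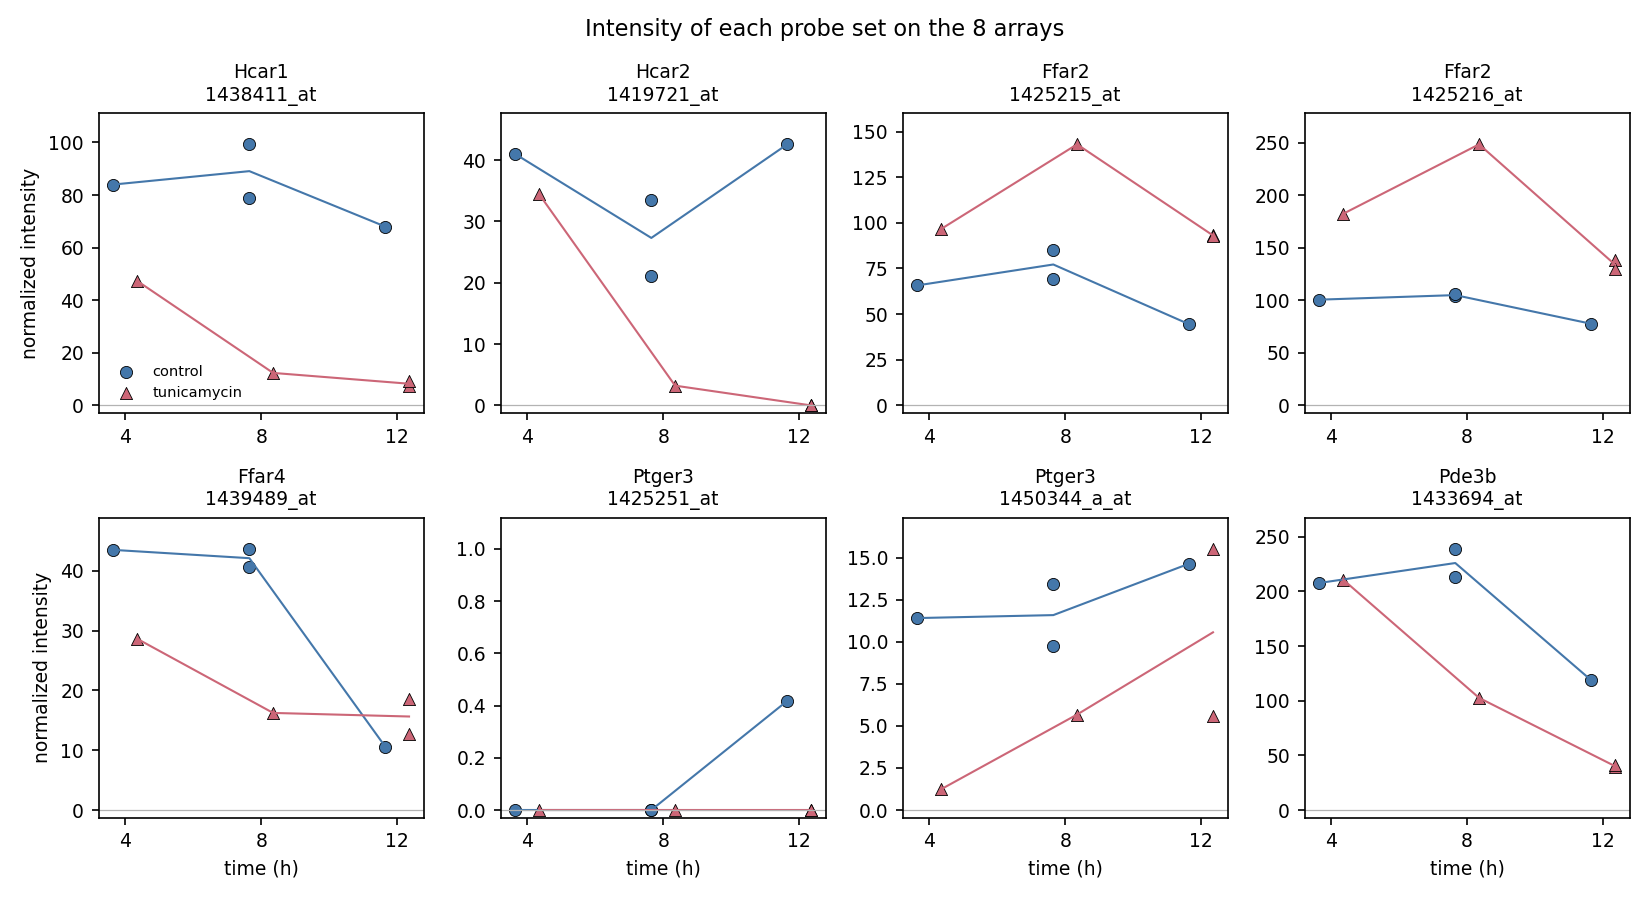
Normalized intensity (vertical axis, arbitrary units, from 0) of the 8 probe sets at 4 h, 8 h and 12 h. Circles are control arrays, triangles tunicamycin arrays, and lines join the means at each time; Hcar1 and Hcar2 fall away from the controls by 8 h, Ffar2 lies above them at each time, and Pde3b starts level at 4 h.

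Hcar1 (probe set 1438411_at), the receptor through which lactate restrains lipolysis, changed most among the tested genes listed. Its intensity was 84.0 in the 4 h control, 99.3 and 78.9 in the 8 h controls and 68.0 in the 12 h control. With tunicamycin it was 47.3 at 4 h, 12.4 at 8 h, and 7.36 and 9.14 at 12 h. Every tunicamycin array lay below the controls of its time, as was so for 18.8% of all tested genes. The mean went from 82.6 ± 13.0 to 19.0 ± 19.0 (SD, n = 4 arrays each over the 3 times). Over all times Hcar1 fell by 2.12 (SE 0.335, limma adjusted p = 0.00329). At 4 h the effect was -0.79 (SE 0.429, limma adjusted p = 0.563), at 8 h it was -2.58 (SE 0.372, limma adjusted p = 0.00264) and at 12 h -2.67 (SE 0.372, limma adjusted p = 0.00184). The test of a difference between times gave a limma adjusted p = 0.189, so the smaller value at 4 h was not shown to differ from the later ones. Its mean log2 value was 6.41 in controls and 4.14 with tunicamycin, just under the filter of 4.19, so its control arrays carried it past the filter. The call over all times was lost without the 8 h tunicamycin array (-1.86, adjusted p = 0.0504) and with no filter on low values (adjusted p = 0.0624). At 8 h it was lost with no filter (adjusted p = 0.0772) or with the deposited scaling kept (-2.66, adjusted p = 0.114), and at 12 h with no filter (adjusted p = 0.0656).

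Promoter sequences are shown for Hcar1 and Ffar2, the called genes with an entry in the RefSeq promoter table (build GRCm38.p6); they moved in opposite directions. Of the 9 listed genes 6 had an entry. Each window runs 5′ to 3′ from 250 bases before to 50 bases after an annotated start, and for Ffar2 the most upstream of its starts is given. Capitals mark a match, on either strand, to any of the motifs searched.
Hcar1, chr5:123879954-123880253, minus strand: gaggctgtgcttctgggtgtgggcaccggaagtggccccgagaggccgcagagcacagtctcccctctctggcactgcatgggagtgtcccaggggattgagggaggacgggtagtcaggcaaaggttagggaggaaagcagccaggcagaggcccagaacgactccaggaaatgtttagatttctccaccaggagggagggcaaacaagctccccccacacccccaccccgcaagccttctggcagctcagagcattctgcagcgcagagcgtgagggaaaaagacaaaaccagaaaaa
Ffar2, chr7:30823726-30824025, minus strand: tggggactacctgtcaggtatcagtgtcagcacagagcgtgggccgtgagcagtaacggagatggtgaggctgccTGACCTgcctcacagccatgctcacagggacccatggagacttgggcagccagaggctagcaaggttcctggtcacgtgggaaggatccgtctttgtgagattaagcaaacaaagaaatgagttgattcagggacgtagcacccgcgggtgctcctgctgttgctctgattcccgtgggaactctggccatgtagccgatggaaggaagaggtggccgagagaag
The motifs were the C/EBP-ATF response element bound by ATF4 and CHOP (TGATGNAA), the nuclear receptor core element used by PPAR gamma (AGGTCA), the CCAAT box (CCAAT), the TATA box (TATAAA) and the core of the cAMP response element (TGACG). The Hcar1 window held none of these letters. The Ffar2 window shown held 1 nuclear receptor core element, read on the opposite strand and starting at position 76 of the window. Some windows at other Ffar2 starts, not shown, held this element and a CCAAT box. The nuclear receptor core element occurred in 16.2% of 32544 promoter windows of the same length, the CCAAT box in 37.4%, the cAMP element core in 20.9%, the TATA box in 13.6% and the C/EBP-ATF element in 3.91%. A match or its absence in these windows is a description of letters only.

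Hcar2 (1419721_at), the receptor for beta-hydroxybutyrate and the drug niacin, is the direct neighbour of Hcar1 among protein-coding genes on mouse chromosome 5, and its intensities moved alike. Controls read 41.0 at 4 h, 21.0 and 33.6 at 8 h and 42.6 at 12 h. With tunicamycin Hcar2 was at 34.4 at 4 h and 3.22 at 8 h, and both 12 h arrays were at or below 0 (deposited intensities of -12.4 and -15.3). All 4 tunicamycin arrays lay below the controls of their times, the 4 h one by the least. No fold is given because the values reach 0. With no filter on low values Hcar2 was not called over all times (limma adjusted p = 0.135) or at 12 h (limma adjusted p = 0.0641). Under other settings it entered the test through its control arrays (mean log2 of 5.19 in controls and 2.74 with tunicamycin, against a filter of 3.71 with each probe set as its own unit), so calls made there are not given. The correlation of Hcar1 and Hcar2 over the 8 arrays was r = 0.946 on the log2 scale, as a description of arrays that share treatment and time. The genes on either side of the pair, Kntc1 and Denr, had effects of 0.18 (SE 0.245, limma adjusted p = 0.633) and -0.08 (SE 0.091, limma adjusted p = 0.586).

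Ffar2, a receptor for acetate and other short-chain fatty acids that restrains lipolysis, rose. On its tested probe set, 1425216_at, controls read 101 at 4 h, 104 and 106 at 8 h and 77.6 at 12 h. The tunicamycin arrays read 182 at 4 h, 248 at 8 h, and 138 and 130 at 12 h. Every tunicamycin array lay above the controls of its time, as was so for 20.1% of all tested genes. The mean went from 97.0 ± 13.1 to 175 ± 54.2 (SD, n = 4 arrays each over the 3 times). The effect over all times was 0.95 (SE 0.135, limma adjusted p = 0.00214). It was 0.84 at 4 h (SE 0.215, limma adjusted p = 0.180), 1.22 at 8 h (SE 0.186, limma adjusted p = 0.00337) and 0.76 at 12 h (SE 0.186, limma adjusted p = 0.0222). The difference between times had a limma adjusted p = 0.552.

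The second Ffar2 probe set, 1425215_at, has the same source sequence record in the annotation. It read 65.7, 69.2, 85.2 and 44.4 in the 4 h, 8 h, 8 h and 12 h controls, and 96.7, 143, 93.5 and 92.7 in the 4 h, 8 h, 12 h and 12 h tunicamycin arrays. All 4 treated arrays again lay above the controls of their times. Taken as its own unit, it had an effect of 0.83 (SE 0.163, limma adjusted p = 0.0115) over all times. Its effect was 0.87 at 8 h, where it was not called, and 1.02 at 12 h, where it was. The call of Ffar2 over all times was lost with the deposited scaling kept (0.64, limma adjusted p = 0.233), where the median of all genes shifted to -0.31. At 8 h it was lost with that scaling (adjusted p = 0.9999). At 12 h it was lost without tunicamycin 12 h replicate 1 (adjusted p = 0.0562), with the deposited scaling (0.35, adjusted p = 0.996), with median centring (adjusted p = 0.0628) and with no filter (adjusted p = 0.0567).

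Ffar4 (1439489_at), the long-chain fatty acid receptor, read 43.5 in the 4 h control and 40.5 and 43.6 in the 8 h controls, but 10.6 in the 12 h control. The tunicamycin arrays read 28.6 at 4 h, 16.2 at 8 h, and 18.6 and 12.7 at 12 h. They lay below the controls at 4 h and 8 h and above the control at 12 h, where the control itself was the lowest of the 8 arrays. The effect over all times was -0.44 (SE 0.35, limma adjusted p = 0.406). It was -0.56 at 4 h, -1.23 at 8 h (SE 0.481, limma adjusted p = 0.116) and 0.44 at 12 h (SE 0.481, limma adjusted p = 0.561). The difference between times had a limma adjusted p = 0.390. Without the 8 h tunicamycin array the value over all times was 0.01, and without the 12 h control it was -0.94.

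Ptger3 encodes the prostaglandin E2 receptor EP3, which inhibits lipolysis. Its probe set 1450344_a_at read 11.4, 9.74, 13.4 and 14.6 in the 4 h, 8 h, 8 h and 12 h controls, and 1.24, 5.68, 15.5 and 5.60 in the 4 h, 8 h, 12 h and 12 h tunicamycin arrays. The groups overlapped, since 1 of the 12 h tunicamycin arrays was the highest of all 8. With no filter Ptger3 was not called (limma adjusted p = 0.241). Its other probe set, 1425251_at, was at or below 0 on 7 arrays and at 0.418 on the 12 h control.

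Pde3b (1433694_at), the phosphodiesterase that degrades cAMP in fat cells in response to insulin, was lower over all times and at 8 h and 12 h. Controls read 208 at 4 h, 213 and 239 at 8 h and 119 at 12 h. With tunicamycin Pde3b read 211 at 4 h, 103 at 8 h, and 39.0 and 41.3 at 12 h. The treated array was level with its control at 4 h and below the controls at 8 h and 12 h, and the 12 h control was lower than the earlier ones. The mean went from 195 ± 52.4 to 98.4 ± 80.5 (SD, n = 4 arrays each over the 3 times). Over all times Pde3b fell by 0.94 (SE 0.23, limma adjusted p = 0.0191). The effect was 0.02 at 4 h (SE 0.225, limma adjusted p = 0.987), -1.11 at 8 h (SE 0.195, limma adjusted p = 0.00642) and -1.50 at 12 h (SE 0.195, limma adjusted p = 0.00137).

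The difference of the Pde3b effect between times had a limma adjusted p = 0.0793. Its call over all times was lost without control 8 h replicate 2 (-0.90, adjusted p = 0.0528), without the 8 h tunicamycin array (-0.85, adjusted p = 0.138) and without the 12 h control (-0.63, adjusted p = 0.134). It was also lost with no filter (adjusted p = 0.134), without an intensity trend (adjusted p = 0.0535) and when the 12 h arrays were left out (-0.63, adjusted p = 0.173). Within the 12 h arrays it was called (-1.50, limma adjusted p = 0.00931). The call at 8 h was lost with no filter (adjusted p = 0.0673) or the deposited scaling (adjusted p = 0.9999), and that at 12 h with the deposited scaling (-1.90, adjusted p = 0.331).

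**Figure D2:**
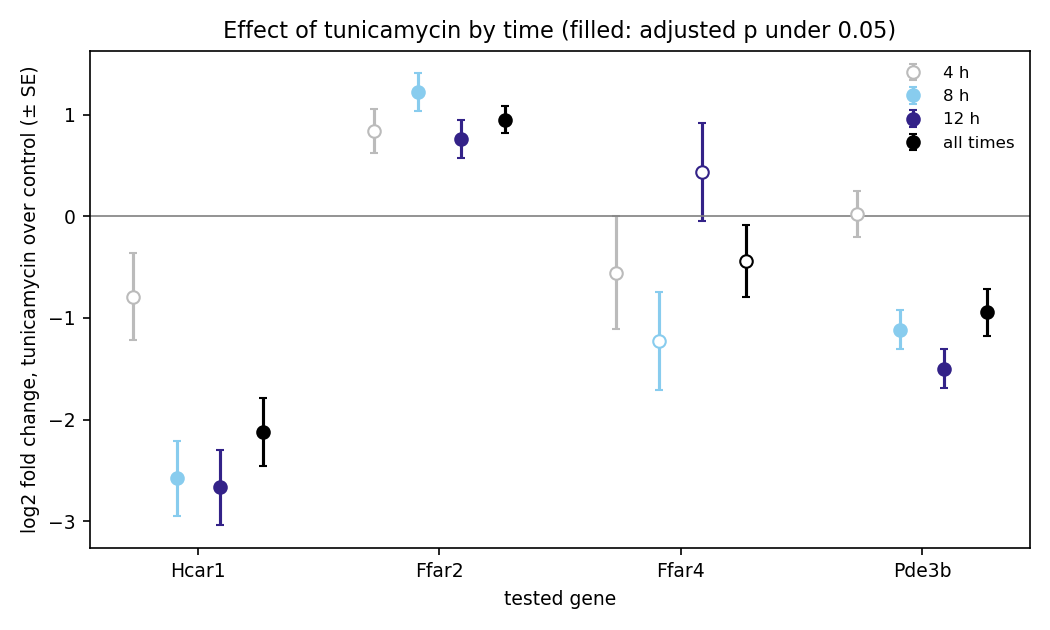
Log2 fold change of tunicamycin over control with its SE (vertical axis) for the 4 tested genes, at each time and over all times. Filled points have an adjusted p under 0.05: Hcar1 and Pde3b are filled below 0 and Ffar2 above 0 at 8 h, at 12 h and over all times, and no point is filled at 4 h or for Ffar4. Hcar1 passed the filter through its control arrays, and its calls were lost with no filter on low values.

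Set side by side by time, 0 of the 4 tested genes were called at 4 h by limma, and 1 (Ffar2) had an unadjusted p under 0.05. Of all tested genes 0.357% were called higher and 0.0366% lower at that time. At 8 h 1 of 4 was higher and 2 lower, where 9.42% and 8.95% of all genes were. At 12 h the counts were again 1 and 2, against 10.1% and 10.9% of all genes. Both counts of lower genes include Hcar1, which passed the filter through its control arrays. The test across times called 0 of 4 (2 at an unadjusted p under 0.05, Hcar1 and Pde3b) and 1.72% of all genes. Every tunicamycin array lay below its time's controls for 1 of the 4 (Hcar1) and above for 1 (Ffar2), where 18.8% and 20.1% of all tested genes did so.

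The authors' deposited table of ratios gives a separate view of the same arrays. Its direction is not stated, and a ratio over 1 is taken here as tunicamycin over control: the log ratios correlated at r = 0.816 to 0.926 across 10916 genes with the effects computed here. For Hcar1 the authors' deposited table has ratios of 0.562 at 4 h (authors' p = 0.0990), 0.132 at 8 h (authors' p = 1e-05) and 0.127 at 12 h (authors' p = 6.36e-07). For Hcar2 the authors' deposited table has 0.600, 0.158 and 0.120, with authors' p-values of 0.259, 0.0193 and 3.92e-06. The 12 h tunicamycin intensities of Hcar2 were below 0 as deposited (-12.4 and -15.3), so no size of change is read from its ratios. Both receptors had ratios below 1 at each time, with the lowest p at 12 h.

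For Pde3b the log10 ratio in the authors' deposited table was 9e-05 at 4 h, and the ratio was 0.359 at 8 h and 0.275 at 12 h (authors' p = 0.999, 3e-05 and 0.00121). The tested Ffar2 probe set had ratios of 1.97, 2.48 and 1.49 in the authors' deposited table (authors' p = 0.00260, 5.92e-07 and 0.0736). The other one had 1.49, 1.91 and 2.10 there, so the probe sets differ in the time of the highest ratio in the authors' deposited table. Ffar4 stood at 0.841, 0.299 and 1.73 in the authors' deposited table, with authors' p-values of 0.663, 0.00480 and 0.602. Of all tested genes, the authors' deposited table has an unadjusted p under 0.05 and a ratio below 1 for 5.74%, 17.4% and 20.6% at the 3 times in order, and a ratio above 1 for 10.1%, 19.7% and 17.0%.

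**Figure D3:**
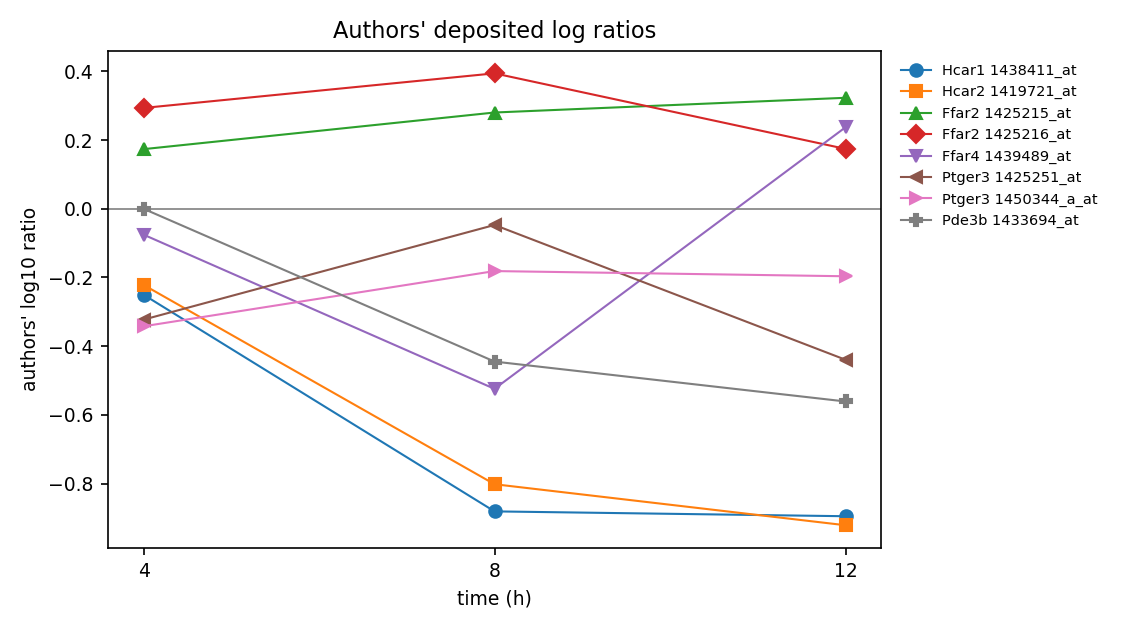
Log10 ratio from the authors' deposited table (vertical axis) against time in hours, 1 line per probe set. Hcar1 and Hcar2 run together to the lowest ratios, both Ffar2 probe sets stay above 0, and Ffar4 crosses 0 between 8 h and 12 h. The deposited 12 h tunicamycin intensities of Hcar2 were below 0.

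The rest of the pathway was described from lists of other receptors, G proteins, kinases, phosphodiesterases and lipases, whose counts over all times stand beside the 11.1% of all tested genes called higher and 9.68% called lower. Of 6 tested other receptors that act on fat cell cAMP, 0 were higher and 1 lower over all times, with a median effect of -0.70 beside -0.01 for all tested genes. The count was 0 without the 8 h tunicamycin array and 2 without either 4 h array. The called one was Mc2r, the ACTH receptor, which stimulates lipolysis in mouse fat cells. Mc2r read 242 in the 4 h control, 244 and 267 in the 8 h controls and 150 in the 12 h control, against 201 at 4 h, 81.9 at 8 h, and 41.6 and 38.2 at 12 h with tunicamycin. Its effect was -1.32 (SE 0.242, limma adjusted p = 0.00589). Each treated array lay below its control, the 4 h one by the least.

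Of 13 tested G proteins and adenylyl cyclases, 0 were higher and 1 lower (median -0.11), a share near that of all tested genes, and the calls numbered 0 to 2 when single arrays were left out. Adcy6, a cyclase that makes cAMP, fell by 0.40 (SE 0.122, limma adjusted p = 0.0440). Of 16 genes of protein kinase A, its anchors and receptor desensitisation, 1 was higher and 5 were lower (median -0.12), and the calls numbered 0 to 6 when single arrays were left out, with 0 if the array left out was tunicamycin 8 h and 1 if it was control 12 h or tunicamycin 12 h replicate 2. Among them Pkig, an inhibitor of the kinase, fell by 0.87 (SE 0.166, limma adjusted p = 0.00697). Prkar2b, the main regulatory subunit of the kinase in fat cells, fell by 0.78 (SE 0.193, limma adjusted p = 0.0201), and Arrb1, an arrestin that uncouples receptors, by 0.56 (SE 0.158, limma adjusted p = 0.0327). The call of Arrb1 was lost in 10 alternative settings and kept in 9. Of 8 other phosphodiesterases limma called 0, with 1 at an unadjusted p under 0.05 and a median of -0.03.

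Of 13 lipases and lipid droplet regulators, 2 were higher and 6 lower (median -0.35). The calls in that list numbered 1 to 9 when single arrays were left out, with 1 if that was tunicamycin 8 h and 3 if it was control 12 h. Mgll, the monoacylglycerol lipase that completes triglyceride breakdown, fell by 0.96 (SE 0.194, limma adjusted p = 0.00900), and Lipe, the hormone-sensitive lipase that protein kinase A activates, by 0.86 (SE 0.174, limma adjusted p = 0.00878). Abhd6, another monoacylglycerol hydrolase, rose by 1.18 (SE 0.257, limma adjusted p = 0.0123). Of 8 genes that carry the insulin signal to the phosphodiesterase, 0 were higher and 2 lower (median -0.19), and the calls numbered 0 to 3 when single arrays were left out, with 0 without the 8 h tunicamycin array. Irs1, the receptor substrate, fell by 1.43 (SE 0.268, limma adjusted p = 0.00642) and Pik3r1, the regulatory subunit of PI3 kinase, by 0.80 (SE 0.127, limma adjusted p = 0.00329). Without the 8 h tunicamycin array the named genes Mc2r, Adcy6, Pkig, Prkar2b, Arrb1, Mgll, Lipe, Abhd6, Irs1 and Pik3r1 all lost their calls (adjusted p from 0.0501 for Pik3r1 to 0.218 for Adcy6). With no filter all of these but Pik3r1 lost theirs (adjusted p from 0.0741 for Pkig to 0.145 for Prkar2b). Without the 12 h control Adcy6, Pkig, Prkar2b, Arrb1, Mgll and Abhd6 lost theirs (adjusted p up to 0.212). When the probe sets of each gene were averaged, Lipe, Abhd6 and Adcy6 lost theirs. The effect was then -0.19 for Lipe (limma adjusted p = 0.659) and 0.25 for Abhd6 (limma adjusted p = 0.650). For Adcy6 it was -0.40 (limma adjusted p = 0.0546).

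**Figure D4:**
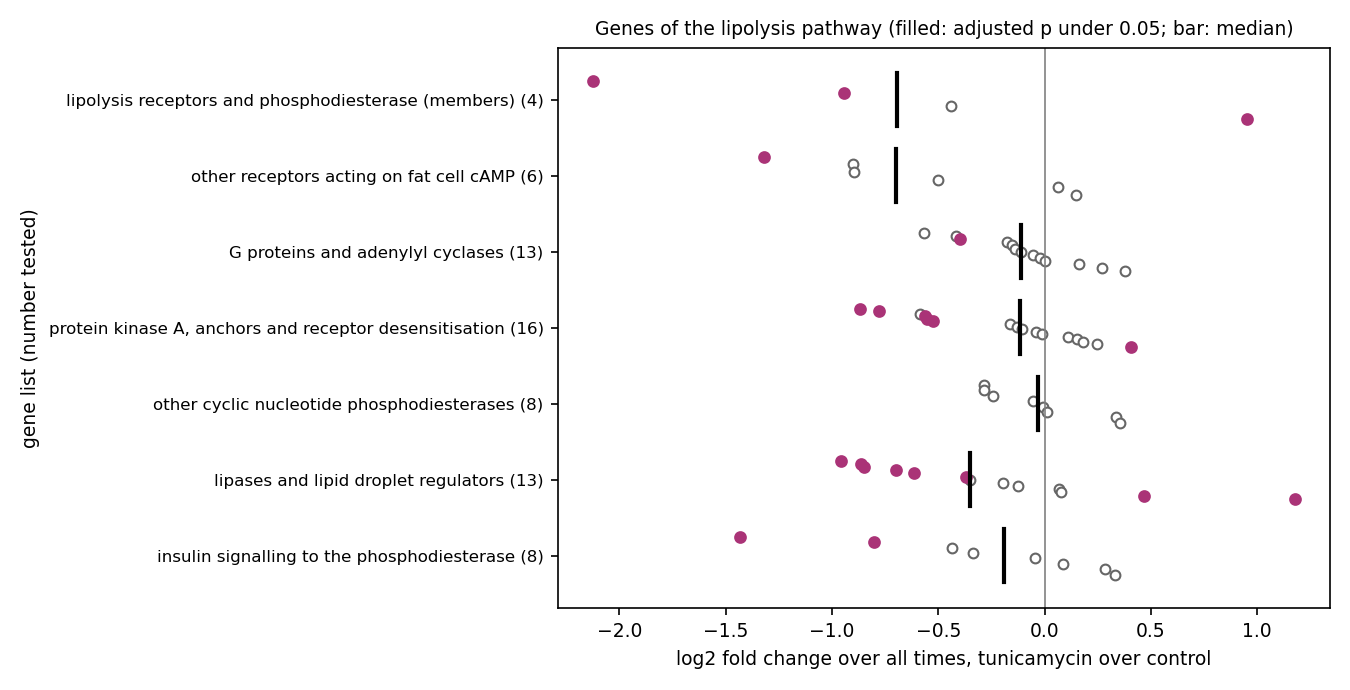
Log2 fold change over all times (horizontal axis) of each tested gene in the lists of the lipolysis pathway, with the number tested in brackets. Filled points have an adjusted p under 0.05 and bars are medians; filled points lie mostly below 0, and the exceptions above 0 include Ffar2 and Abhd6.

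Adipocyte markers were lower in the same cultures. Of 12 tested, 0 were higher and 7 lower, where 9.68% of all tested genes were lower, and the calls numbered 0 when tunicamycin 8 h was left out, 3 when control 12 h was, and 5 to 8 when another array was. The called ones included Cebpa, a factor that maintains the fat cell, which fell by 1.50 (SE 0.288, limma adjusted p = 0.00721) and Pparg, its master regulator, which fell by 0.96 (SE 0.258, limma adjusted p = 0.0284). Neither kept its call when the tunicamycin 8 h array, or the 12 h control, was left out. Counted over all the alternative settings, Pparg lost its call in 10 and Cebpa in 4. The summed intensity of the adipocyte markers was 42662 to 50526 in controls and 34999 to 47863 with tunicamycin. Of 13 tested preadipocyte and fibroblast markers 1 was higher and 3 were lower, with a median effect of -0.15. There was 1 call when either tunicamycin 8 h or control 12 h was left out. The summed intensity of this list, in which bright genes weigh most, was 39247 to 46838 in controls and 32709 to 38287 with tunicamycin. Of 8 macrophage markers 5 lay below the filter, and limma called 0 of the other 3, with 0 at an unadjusted p under 0.05. Their sums overlapped (263 to 523 and 271 to 433). Itgam and Ptprc of the macrophage list and Cd34 of the fibroblast list were each at 0 on 1 control array. The part of these marker changes, of the 3' to 5' ratios and of the BioC to BioB ratios in the results above was not tested.

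The genes whose log2 values followed each called gene most closely over the 8 arrays were listed as a description, since all points share treatment and time. For Hcar1 they were Adamts9, a matrix protease (r = 0.993), and Nsdhl, an enzyme of cholesterol synthesis (r = 0.993). For Pde3b they were Mgll (r = 0.996) and Cyrib, a regulator of Rac1 (r = 0.993). For Ffar2 they were Ncoa1, a nuclear receptor coactivator (r = 0.979), and Pik3c2a, a lipid kinase (r = 0.978). Among the genes listed, Hcar1 and Pde3b correlated at r = 0.902 and Hcar2 and Pde3b at r = 0.901, whereas Ffar2 and Pde3b were at r = -0.200.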

How the data were processed

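The deposited table holds 1 linear intensity per probe set and array; the authors' summarisation and scaling are not stated in the labels or headers. Biotin-labelled total RNA was hybridised to Affymetrix arrays, per the labels. Array medians differed by up to 1.20 on the log2 scale, above a limit of 0.3, so arrays were quantile normalized, values below 0 were set to 0, and 2.96 was added before taking log2 (10th percentile of deposited values above 0). The log10 ratio and p-value tables are the authors' own, per the file headers, and the ratio entered no test. Of 45101 probe sets, 34958 had 1 gene symbol, 932 several and 9211 none; IDs of 34754 were found in RefSeq GRCm38.p6. For each of 18194 genes the probe set of highest mean log2 value was kept, and the 10916 at or above the 40th percentile were tested. No coordinates of probe sets are used.

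Tests used limma 3.58.1 in R 4.3.3 with an intensity trend and Benjamini-Hochberg adjustment over all tested genes, and figures matplotlib 3.10.9 in Python 3.11.15. The effect over all times came from a model of time and treatment (4 residual degrees of freedom); effects that differ between times add to its residual. Effects at single times came from group means (2 residual degrees of freedom, given by the pairs of 8 h control and 12 h tunicamycin arrays), so lone arrays are assumed to vary like those. The test over all times was checked on simulated data with the same change at each time. That check did not cover effects that differ between times or the tests at single times. No 2 arrays held identical values (0 pairs). The number of arrays limits precision. Alternatives were 3 other scalings, pseudocounts of 1 and 16, no filter, no trend, other uses of probe sets, and leaving arrays out. Named genes were all listed genes, from each pathway list up to 3 called genes with the largest effect, 4 fat cell markers, 2 stress markers, and the 2 genes most correlated with each called gene. Genes and lists were chosen with earlier results of these data known. The alternatives were applied to the pathway lists and their named genes after seeing the data.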

Additional observations from a re-analysis of the deposited data

Results flagged for a closer look

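For Ffar4, tunicamycin arrays lay below the controls at 4 h and 8 h and above the control at 12 h, so the effect changed side between times. The effect at 12 h minus that at 4 h was 0.99 on the log2 scale, and the limma test across times did not call it (adjusted p = 0.390). For Pde3b the treated array lay just above its control at 4 h (211 against 208) and below at 8 h and 12 h. The effect at 12 h minus that at 4 h was -1.52, with a limma adjusted p = 0.0793 across times. Each group at 4 h holds 1 array.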

How the results depend on the processing

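Over all times, 3 of the listed genes were called. The count was 1 with no filter, and 1 to 3 when single arrays were left out. It was 2 with the deposited scaling, without an intensity trend, and with no 12 h array. At 8 h it went from 3 to 0 with the deposited scaling and to 1 with no filter. The count at 12 h went from 3 to 1 with either, to 2 with median centring, and to 2 to 3 without single arrays. Counts above 0 are not given for settings where Hcar2 entered the test through its control arrays. At 4 h and across times it was 0 in each setting run. Of all tested genes 2264 were called over all times: 850 with the deposited scaling, 578 with no filter, 1467 without an intensity trend, 1466 with probe sets averaged, 487 with no 12 h array, and 374 to 2948 without single arrays (374 without the 8 h tunicamycin array). The calls were 53.3% higher, and 16.8% with the deposited scaling, 69.2% with no filter and 71.3% with no 12 h array. Over all times, Hcar1 kept its direction and call in 17 of 19 alternatives (-2.67 to -1.52), Ffar2 in 18 of 19 (0.64 to 1.06) and Pde3b in 13 of 19 (-1.50 to -0.63), and none of these 3 changed sign. Uncalled values turned for Pde3b at 4 h with the deposited scaling (-0.52), for Ffar4 over all times on the 12 h arrays alone (0.44) and without the 8 h tunicamycin array (single arrays left out gave -0.942 to 0.0117), and for Adipoq without control 8 h replicate 1 (-0.0609 to 0.00246 over single arrays left out). Of 18 called named genes of the pathway, markers and correlated genes, 16 lost their calls with no 12 h array, 15 without the 8 h tunicamycin array, 14 with no filter, 9 without the 12 h control, and 0 to 5 under each of the others. No filter means more genes tested and a changed variance trend; otherwise the cause was not tested. No paired analysis was possible because the control and tunicamycin groups of each time share only replicate number 1. Values near the pseudocount, as for Hcar2 and Ptger3, limit what can be said of dim genes.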
